A study of Mus musculus with 20 samples.

Results

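Oxygen-glucose deprivation (OGD) was compared with normoxia in primary mouse cortical neurons that lack the circular RNA ciRS-7, across every gene listed for that pair of groups. The comparison rests on 10 of the 20 libraries of the series, 5 called OGD_KO and 5 called N_KO, and on 14375 of the 14700 genes listed for any pair of groups. All cultures came from cortices of embryonic day 15 and grew for 7 days in Neurobasal medium with B27 supplement. N_KO cultures were then moved for 12 h to medium with 25 mM glucose and sodium pyruvate in the normal incubator. OGD_KO cultures were moved for 12 h to the same base medium without added glucose or pyruvate, in a chamber at 1% oxygen. Oxygen, glucose and pyruvate therefore changed together, and their separate parts cannot be told apart. The genotype label of both groups is a knockout of ciRS-7 (gene symbol Cdr1as), and the strain label of all 20 samples, wild type included, is C57BL/6N-Cdr1asem1Nikr. The matching wild-type (WT) groups, N_WT and OGD_WT, were handled the same way and are used only to set values beside those of the knockout (KO). By the labels, batch 2 holds only KO libraries and batch 3.2 only WT libraries. Genotype and batch therefore cannot be fully told apart between KO and WT. A culture number (1 to 5) joins an OGD_KO library to the N_KO library of the same batch label. The labels do not say that cultures came from separate litters or animals, so p-values measure the spread between these samples, which may be partly technical.

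Cells that lose oxygen stop hydroxylating the alpha subunits of hypoxia-inducible factor (HIF), which then escape degradation through VHL and switch on genes of glucose uptake, glycolysis, blood vessel growth and oxygen sensing itself. Loss of glucose and oxygen also lowers ATP. Stress kinases then phosphorylate the initiation factor eIF2, which slows protein synthesis and favours translation of the transcription factor ATF4, the integrated stress response. In neurons the failing ion pumps let calcium in, and calcium and MAP kinases switch on immediate early genes such as Fos and Egr1 within minutes to hours. ciRS-7 is a circular RNA of neurons that binds the microRNA miR-7 and forms a network with the long noncoding RNA Cyrano.

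The libraries did not scatter alike. Values are log2 CPM (reads scaled to a common library size, on a log2 scale), with reads per library between 7496144 and 14764851. Libraries of cultures 1 and 3 lay close to their group means, with a standard deviation over 9467 genes of 0.101 to 0.132 log2 units. Those of cultures 2, 4 and 5, the 3 cultures with batch labels 3.1 and 3.3, lay 0.290 to 0.413 away and held the lowest or highest value of their group for 57.3% to 63.7% of genes. Over all 20 libraries the deviations cancelled within a batch more than independent libraries would, to different extents. In batch 3.1 a library deviated by 0.323 (root mean square over genes) and the mean of its 6 libraries by 0.026, against 0.132 for independent libraries. In batches 1 and 3.3 the batch mean was at 0.021 and 0.032, against 0.061 and 0.136. In batches 2 and 3.2, with 2 libraries each, it was at 0.041 and 0.032, against 0.074 and 0.050. Whether values were adjusted between batches before deposit is not given in the sources used here and was not tested. Counts of genes are therefore also given from cultures 2, 4 and 5 alone, written as "batch 3 alone", where they move by more than 1.5 times. Mitochondrial ribosomal RNA took 11.5% to 17.8% of the reads in N_KO and 20.2% to 33.8% in OGD_KO, the highest in culture 5, and its part in the results was not tested.

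**Figure D1:**
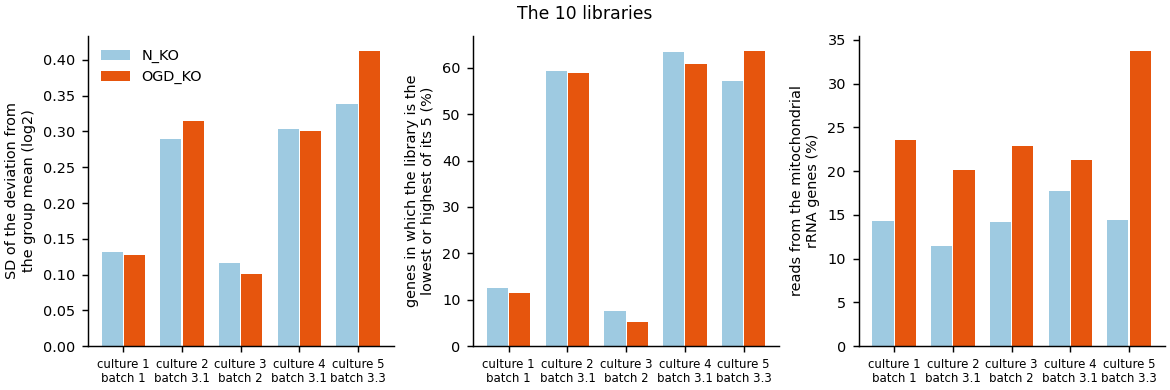
Each bar is 1 library of OGD_KO or N_KO, ordered by culture. The panels show the standard deviation of its log2 CPM from the group mean, the percentage of genes for which it is the lowest or highest of its group, and the percentage of its reads from mitochondrial ribosomal RNA. Cultures 1 and 3 have the shortest bars in the first and second panels, and OGD_KO of culture 5 has the tallest bar in the third (33.8%).

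The labelled cell type was checked first. All 10 neuron markers were measured, and together they summed to 6659 to 6857 CPM in N_KO and to 4145 to 5628 CPM in OGD_KO. Of 10 microglia markers 1 was measured, with Aif1, Cx3cr1 and Csf1r among those not analysed here, so that list gives no summed level. Astrocyte markers (9 of 10 measured) summed to 891.8 to 1586 CPM in N_KO and 1526 to 2354 CPM in OGD_KO. Progenitor markers (9 of 9) summed to 754.2 to 1184 and 1311 to 1682 CPM, and oligodendrocyte lineage markers (8 of 10) to 210.4 to 395.9 and 281.8 to 399.5 CPM. The cultures were thus rich in neuron transcripts with glial and progenitor transcripts beside them. Under OGD the progenitor sums lay above those of normoxia, while the astrocyte and oligodendrocyte lineage ranges overlapped. These sums are not shares, because the CPM of all genes summed to 893095 to 938945 in N_KO and 1058685 to 1268618 in OGD_KO. In bulk samples, fewer cells of a type and less RNA per cell cannot be told apart, which touches each neuronal, glial or proliferation result below.

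OGD was followed by a wide change of expression. limma called 5884 genes (40.9%) at an adjusted p under 0.05, of which 3021 (21.0% of the genes tested) were higher and 2863 (19.9%) lower in OGD_KO. The groups of 5 did not overlap for 3711 genes (25.8%). With batch 3 alone limma called 2341 genes, 1190 higher and 1151 lower. A log2 fold change of at least 1 was reached by 687 of the higher and 558 of the lower genes, and one of at least 2 by 82 and 15. Of the called genes, 4643 (78.9%) moved in the same direction in all 5 cultures. The median log2 fold change over all genes was 0.003, so shifts of a group are read against a background near 0. Counts of a list are likewise read against the 21.0% higher and 19.9% lower of all genes. Counts with batch 3 alone rest on fewer libraries. They are read against the 1190 higher and 1151 lower of 14375 genes in that fit. There the medians of 49 of the 51 lists stayed within 1 standard deviation of the culture medians, and those of 2 did not.

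**Figure D2:**
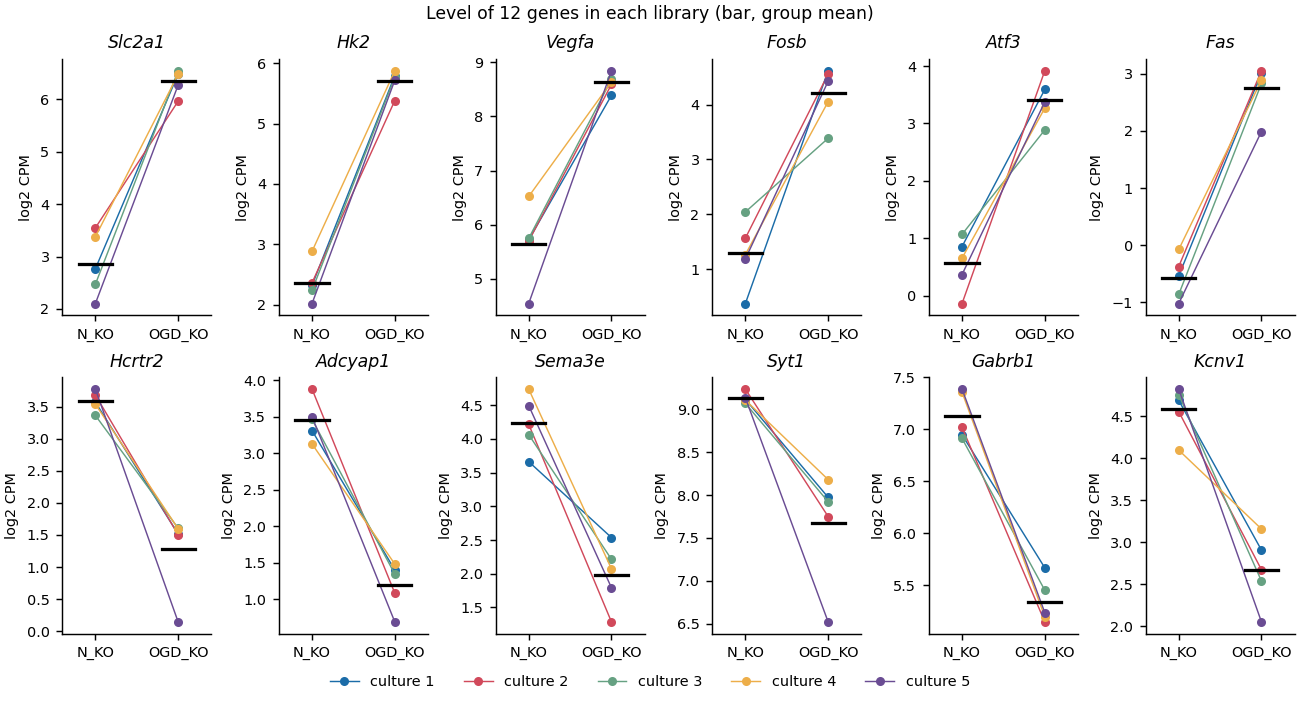
Each panel shows the log2 CPM of 1 gene in the 5 N_KO and 5 OGD_KO libraries, with a line joining the libraries of a culture and a bar at the group mean. The groups are apart in each of the 12 panels, upward from Slc2a1 to Fas and downward from Hcrtr2 to Kcnv1. Most of these genes were named by a rule that asked for groups that do not overlap. Their separation was thus a condition of choice.

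Glucose uptake and glycolysis rose. Slc2a1, at chr4:119108711-119137983 (mm10, plus strand), encodes GLUT1, the glucose transporter of glia and vessels. Its log2 CPM was 2.77, 3.55, 2.47, 3.38 and 2.10 in N_KO of cultures 1 to 5 and 6.48, 5.96, 6.54, 6.48 and 6.27 in OGD_KO. Every OGD_KO library lay above every N_KO library, and the log2 fold change was 3.50 (SE 0.22) (limma adjusted p 7.6e-09). Hk2, at chr6:82725025-82774454 (minus strand), encodes the inducible hexokinase that traps glucose in the cell. It lay at 2.32, 2.36, 2.24, 2.88 and 2.02 in N_KO and at 5.79, 5.38, 5.77, 5.88 and 5.72 in OGD_KO, again with no overlap, a rise of 3.34 (SE 0.16) (limma adjusted p 2.59e-10). The constitutive hexokinase gene Hk1 lay at 7.34, 7.96, 7.26, 7.28 and 6.92 in N_KO and 7.34, 7.35, 7.39, 7.03 and 7.51 in OGD_KO, and its difference of -0.03 (SE 0.17) was within the spread (limma adjusted p 0.91).

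Of 19 glycolysis genes tested, 12 rose and 1 fell (7 rose with batch 3 alone), with a median log2 fold change of 0.90 against 0.003 for all genes. The liver-type phosphofructokinase gene Pfkl rose from 4.93, 5.41, 4.77, 4.94 and 4.68 to 6.83, 6.55, 7.02, 7.01 and 6.97, by 1.93 (SE 0.16) (limma adjusted p 6.1e-08). Of the other phosphofructokinase subunits, Pfkm changed by -0.02 (SE 0.15) and Pfkp by 0.15 (SE 0.17), neither of which passed the test (limma adjusted p 0.928 and 0.519). The enolase genes moved apart. Eno1, the widespread form, lay at 7.32, 7.78, 7.21, 7.65 and 7.17 in N_KO and 8.98, 8.23, 8.93, 8.88 and 8.90 in OGD_KO, a rise of 1.36 (SE 0.18) (limma adjusted p 1.21e-05), although 26.0% of its 50-base words occur in other genes, so its reads may be shared. Eno2, the neuronal form, lay at 5.42, 5.67, 5.36, 5.30 and 5.33 and then 4.45, 4.82, 4.37, 3.99 and 3.80, with no overlap, and fell by 1.13 (SE 0.17) (limma adjusted p 5.73e-05). Ldha, which turns pyruvate into lactate and restores NAD, lay at 6.45, 6.86, 6.25, 6.86 and 5.85 in N_KO and 8.13, 7.37, 8.12, 8.03 and 8.22 in OGD_KO and rose by 1.52 (SE 0.20) (limma adjusted p 1.35e-05), while Ldhb differed by 0.26 (SE 0.16) (limma adjusted p 0.187).

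Among 10 sugar and lactate transporter genes, 3 rose and 3 fell, beside 21.0% higher and 19.9% lower among all genes. The lactate exporter gene Slc16a3 (MCT4) had 3 to 10 reads per N_KO library and 22 to 51 per OGD_KO library, a log2 rise of 2.14 (SE 0.19) (limma adjusted p 1.18e-07). Slc16a7 (MCT2), through which neurons take up lactate, lay at 5.77, 5.29, 5.63, 5.88 and 5.79 in N_KO and 4.40, 4.07, 4.17, 4.44 and 3.85 in OGD_KO. The groups were apart, and it fell by 1.49 (SE 0.16) on the log2 scale (limma adjusted p 1.08e-06). Slc2a3, the neuronal glucose transporter GLUT3, differed by 0.43 (SE 0.28), within the spread (limma adjusted p 0.236). Of 12 genes of pyruvate entry into mitochondria 2 rose, 3 fell and 7 were not called. Among all genes 21.0% were higher and 19.9% lower. The list members that rose were the pyruvate dehydrogenase kinase genes Pdk1 (1.24 (SE 0.23), limma adjusted p 0.000288) and Pdk3 (0.64 (SE 0.16), limma adjusted p 0.00383). The kinases switch the pyruvate dehydrogenase complex off. The complex's own genes Dlat and Pdhx and its phosphatase gene Pdp1 fell by 0.54 (SE 0.13), 0.53 (SE 0.15) and 0.45 (SE 0.15) (limma adjusted p 0.0024, 0.00906 and 0.0218). Pdk3 and these 3 genes were not called with batch 3 alone, nor Pdhx and Pdp1 without culture 3 or Pdp1 without culture 1.

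The HIF complex binds DNA at a core of ACGTG or GCGTG. RefSeq promoters (GRCm38.p6) are shown for a hexokinase gene that rose, its sister gene that did not, and Ldha. Each run holds the 250 bases before the start of transcription, 5′ to 3′ on the gene's strand, with the core on either strand in capitals. Where RefSeq lists more than 1 start, the promoter with the most matches is shown.
Hk2, chr6:82774455-82774704, minus strand: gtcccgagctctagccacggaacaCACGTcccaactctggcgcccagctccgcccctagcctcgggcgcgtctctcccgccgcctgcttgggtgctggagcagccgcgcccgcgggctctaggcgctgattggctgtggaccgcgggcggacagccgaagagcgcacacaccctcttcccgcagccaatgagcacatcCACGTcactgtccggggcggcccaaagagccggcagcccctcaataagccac
Hk1, chr10:62340422-62340671, minus strand: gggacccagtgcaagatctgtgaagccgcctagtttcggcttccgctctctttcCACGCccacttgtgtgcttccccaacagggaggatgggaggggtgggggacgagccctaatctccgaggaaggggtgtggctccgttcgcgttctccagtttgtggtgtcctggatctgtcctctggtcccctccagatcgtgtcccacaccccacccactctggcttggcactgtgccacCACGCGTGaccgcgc
Ldha, chr7:46845554-46845803, plus strand: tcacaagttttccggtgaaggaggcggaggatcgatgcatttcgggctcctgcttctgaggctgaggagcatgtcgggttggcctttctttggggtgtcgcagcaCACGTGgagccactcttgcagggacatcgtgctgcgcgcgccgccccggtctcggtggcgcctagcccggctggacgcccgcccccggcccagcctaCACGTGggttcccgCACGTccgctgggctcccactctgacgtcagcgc
Hk2 holds 2 matches, 226 and 52 bases before the start. Hk1 holds 3, at 196, 15 and 12 bases, and Ldha 5, at 145, 144, 48, 47 and 34 bases, with overlapping matches on opposite strands counted separately. The core also lies within the E-box CACGTG. At least 1 match was present in 16 of 19 glycolysis genes (84.2%) and 18 of 21 other HIF targets with a promoter (85.7%), beside 7037 of the 10252 genes of the comparison that have one (68.6%), each over windows of 300 bases. Among called genes the share was 69.4% of those that rose and 66.8% of those that fell. So short a core is in most promoters of either kind, Hk1 included, and the letters alone do not mark the genes that rose.

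**Figure D3:**
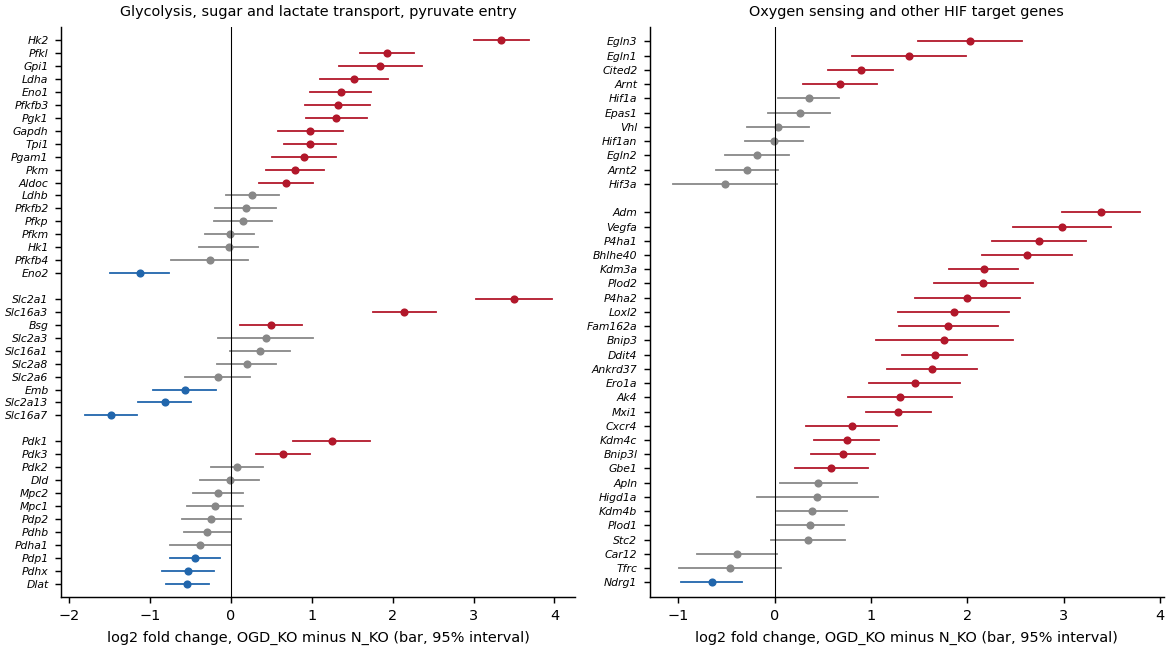
Points are log2 fold changes of OGD_KO against N_KO with 95% intervals, on the left for glycolysis, sugar and lactate transport and pyruvate entry and on the right for oxygen sensing and other HIF targets. Red marks genes called higher, blue genes called lower and grey genes not called. Slc2a1 and Hk2 lie farthest right on the left side, and Eno2, Slc16a7 and Slc2a13 are among the blue points.

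Genes of the oxygen sensor itself changed in part. The prolyl hydroxylases, encoded by Egln genes, mark HIF alpha subunits for destruction. Egln3 lay at 2.13, 2.64, 1.91, 3.18 and 1.47 in N_KO and 4.24, 3.74, 4.54, 4.18 and 4.78 in OGD_KO, without overlap, and rose by 2.03 (SE 0.26) (limma adjusted p 7.56e-06). Egln1 rose by 1.40 (SE 0.28) with overlapping groups (limma adjusted p 0.000697), and Egln2 differed by -0.18 (SE 0.16) (limma adjusted p 0.365). The transcript of Hif1a differed by 0.35 (SE 0.15) and did not pass (limma adjusted p 0.0714), and that of Vhl by 0.03 (SE 0.15) (limma adjusted p 0.877). In all 4 of 11 oxygen sensing genes rose and 0 fell.

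Of 27 other HIF targets 19 rose and 1 fell, with a median of 1.31. Vegfa, at chr17:46016993-46032369 (minus strand), encodes the growth factor of blood vessels. It lay at 5.72, 5.70, 5.75, 6.52 and 4.55 in N_KO and 8.39, 8.59, 8.69, 8.64 and 8.85 in OGD_KO, a rise of 2.98 (SE 0.24) (limma adjusted p 6.1e-08). Adm, which encodes the vasodilator adrenomedullin, had 0 or 1 read in each N_KO library and 38 to 64 in each OGD_KO library. Its log2 fold change of 3.39 (SE 0.20) (limma adjusted p 2.3e-09) depends on the constant that was added to its few reads. The small spread of Adm in N_KO depends on it too, so the p-value is not read as support. With so few N_KO reads, Adm may be listed only through its OGD_KO values. Kdm3a, a histone demethylase that itself needs oxygen, lay at 5.55, 6.09, 5.63, 5.73 and 5.19 and then 7.84, 7.40, 7.86, 7.94 and 8.02, without overlap. It rose by 2.17 (SE 0.17) (limma adjusted p 4.44e-08). P4ha1, a collagen prolyl hydroxylase, rose by 2.75 (SE 0.23), and Bnip3, a mitophagy receptor, by 1.76 (SE 0.34) (limma adjusted p 9.25e-08 and 0.000471). The member that fell was Ndrg1 (-0.65 (SE 0.15), limma adjusted p 0.00215, not called with batch 3 alone). The genes whose pattern over the 10 libraries was most like the mean of the glycolysis genes were Slc2a1, Kdm3a and Ddit4, with Pearson correlations of 0.9897, 0.9889 and 0.9887. These correlations describe 2 groups that are far apart.

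The integrated stress response was the second group that rose broadly, with 23 of 29 genes higher and 1 lower and a median of 0.78 (11 higher with batch 3 alone). Atf3, at chr1:191170296-191218039 (minus strand), encodes a stress-induced transcription factor. It lay at 0.86, -0.14, 1.07, 0.65 and 0.37 in N_KO and 3.59, 3.92, 2.89, 3.27 and 3.37 in OGD_KO, without overlap, and rose by 2.85 (SE 0.23) (limma adjusted p 4.63e-08). Slc7a11, at chr3:49892526-50443614 (minus strand), encodes the cystine-glutamate exchanger that feeds glutathione synthesis. Its values were 3.24, 3.08, 3.19, 3.14 and 3.58 and 5.81, 4.86, 5.35, 5.50 and 5.32, also apart, with a rise of 2.12 (SE 0.17) (limma adjusted p 4.77e-08). Ddit3 (CHOP), which promotes cell death under lasting stress, lay at 2.89, 2.52, 3.09, 3.45 and 2.24 and then 4.37, 4.36, 3.95, 4.28 and 4.34 and rose by 1.42 (SE 0.19) (limma adjusted p 1.56e-05). Atf4 rose by 0.88 (SE 0.18), and the translation inhibitor gene Eif4ebp1 by 1.71 (SE 0.19) (limma adjusted p 0.000997 and 2.19e-06), and Atf4 was not called with batch 3 alone. Asns, the asparagine synthetase gene and a textbook ATF4 target, stood apart from the list. Its values were 7.12, 6.75, 6.99, 7.21 and 7.36 in N_KO and 7.22, 7.05, 7.11, 7.51 and 6.24 in OGD_KO. The difference of -0.06 (SE 0.20) was within the spread (limma adjusted p 0.837). Asns was slightly higher under OGD in cultures 1 to 4 and lower in culture 5 alone, on which the sign of the mean rests.

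ATF4 pairs with C/EBP proteins on a composite site, searched here as TGATGNAA on both strands. The promoters of Atf3, Slc7a11 and Asns hold it (capitals) and are shown because the first 2 genes rose and the last was not called.
Atf3, chr1:191183334-191183583, minus strand: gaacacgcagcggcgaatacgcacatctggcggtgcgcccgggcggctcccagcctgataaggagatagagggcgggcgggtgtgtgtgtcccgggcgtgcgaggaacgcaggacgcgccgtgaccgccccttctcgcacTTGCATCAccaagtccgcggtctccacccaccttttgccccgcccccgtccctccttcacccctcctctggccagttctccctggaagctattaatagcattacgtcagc
Slc7a11, chr3:50443614-50443863, minus strand: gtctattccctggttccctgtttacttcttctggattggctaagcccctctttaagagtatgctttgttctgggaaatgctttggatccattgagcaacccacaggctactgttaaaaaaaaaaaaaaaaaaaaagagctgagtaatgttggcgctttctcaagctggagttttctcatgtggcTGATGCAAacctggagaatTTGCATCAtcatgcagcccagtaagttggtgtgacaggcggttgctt
Asns, chr6:7693210-7693459, minus strand: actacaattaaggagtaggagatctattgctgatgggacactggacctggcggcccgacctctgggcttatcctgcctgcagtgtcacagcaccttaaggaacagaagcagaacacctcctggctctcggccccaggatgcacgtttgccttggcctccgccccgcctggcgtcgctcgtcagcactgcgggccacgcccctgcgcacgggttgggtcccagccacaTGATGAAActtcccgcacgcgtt
The start that RefSeq gives for Atf3 lies inside the annotated gene. The matches begin 110 bases before the start in Atf3, 66 and 47 bases in Slc7a11 and 23 bases in Asns. The letters were present in 8 of 25 integrated stress response genes with a promoter (32.0%), against 265 of 10252 genes (2.6%), 2.7% of called genes that rose and 2.5% of those that fell. The site was thus more common in the list than in the table, and Asns, with a match, was not called.

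The unfolded protein response of the endoplasmic reticulum moved less. Of 22 genes 6 rose and 1 fell (1 rose with batch 3 alone, 3 without culture 1 and 10 without OGD_KO of culture 5), with a median of 0.20. Among all genes 21.0% were higher and 19.9% lower. The eIF2 kinase gene Eif2ak3 (PERK) rose by 1.16 (SE 0.16) (limma adjusted p 1.93e-05), and Xbp1, a transcription factor of the same response, fell by 0.55 (SE 0.15) (limma adjusted p 0.00741, not called with batch 3 alone or without culture 3). Of 18 heat shock genes 6 rose and 1 fell. Hspa1b, an inducible HSP70 gene, lay at 2.32, 2.61, 2.27, 3.04 and 1.76 in N_KO and 5.17, 4.58, 5.59, 5.20 and 6.34 in OGD_KO and rose by 2.98 (SE 0.26) (limma adjusted p 1.34e-07). It shares 62.3% of its 50-base words with other genes, and Hspa1a is a neighbouring near-identical copy, so its value is uncertain. The constitutive member Hspa8 differed by 0.16 (SE 0.36) (limma adjusted p 0.755). Hspb1 (HSP27) had 0 reads in all N_KO libraries and 10 to 21 in OGD_KO, at least 29.1-fold higher with a floor of 3 reads over the group, and 48.8% of its 50-base words occur in other genes.

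Among 17 oxidative stress genes driven by NRF2, 7 rose and 0 fell. Hmox1, heme oxygenase, lay at 2.97, 3.01, 3.07, 2.92 and 3.27 in N_KO and 5.41, 4.95, 5.03, 5.51 and 4.53 in OGD_KO, without overlap, and rose by 2.04 (SE 0.17) (limma adjusted p 8.44e-08). Nfe2l2, which encodes NRF2, rose by 1.84 (SE 0.23) (limma adjusted p 6.71e-06). Textbook targets Txnrd1 and Gclm differed by 0.02 (SE 0.14) and -0.02 (SE 0.18), within the spread (limma adjusted p 0.911 and 0.927). The called members Hmox1 and Slc7a11 also belong to other stress responses, so the list's count is not specific to NRF2. Of 11 metallothionein and zinc transporter genes 3 rose and 2 fell, beside 21.0% higher and 19.9% lower among all genes. In this list 0 rose with batch 3 alone (1 without culture 1). Mt1 rose by 1.18 (SE 0.24) (limma adjusted p 0.000707) with overlapping groups and was not called with batch 3 alone.

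Immediate early genes formed the group with the largest median among the 44 pathway lists, 1.52, with 20 of 26 higher and 0 lower. Fosb, at chr7:19302696-19310051 (minus strand), encodes a FOS-family subunit of the factor AP-1. It lay at 0.37, 1.56, 2.04, 1.26 and 1.18 in N_KO and 4.62, 4.56, 3.38, 4.05 and 4.42 in OGD_KO, without overlap, and rose by 2.92 (SE 0.27) (limma adjusted p 1.95e-07). Jun, its dimer partner, lay at 6.46, 6.00, 6.63, 6.91 and 6.04 and then 8.92, 9.17, 8.99, 9.31 and 9.37 and rose by 2.75 (SE 0.18) (limma adjusted p 7.91e-09). Egr1, a zinc-finger factor of neuronal activity, lay at 4.64, 5.29, 5.42, 4.61 and 4.72 and then 7.88, 7.64, 7.13, 8.04 and 8.07, a rise of 2.81 (SE 0.20) (limma adjusted p 1.26e-08). Both were apart between groups in all 10 libraries. The orphan nuclear receptor gene Nr4a1 rose by 2.95 (SE 0.20) (limma adjusted p 9.27e-09).

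Srf, the factor that drives many of these genes, lay at 4.28, 4.66, 4.42, 4.07 and 4.16 in N_KO and 5.88, 6.30, 6.11, 6.06 and 6.07 in OGD_KO and rose by 1.77 (SE 0.15) without overlap (limma adjusted p 6.23e-08). Its own promoter holds a pair of serum response elements (capitals), 82 and 62 bases before the start, and is shown for that reason.
Srf, chr17:46556163-46556412, minus strand: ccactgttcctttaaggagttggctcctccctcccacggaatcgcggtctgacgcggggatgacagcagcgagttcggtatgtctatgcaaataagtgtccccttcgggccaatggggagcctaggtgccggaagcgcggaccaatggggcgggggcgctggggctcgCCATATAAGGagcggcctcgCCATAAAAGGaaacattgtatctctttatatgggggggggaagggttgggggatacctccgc
The element, searched by its CArG letters on both strands, was present in 2 of 20 immediate early genes with a promoter in the windows of 300 bases (Egr2 and Srf), against 168 of 10252 genes (1.6%). A count of 2 genes is too few to read as a difference.

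Feedback and inflammatory genes rose beside them. Of 17 MAP kinase feedback genes 7 rose and 2 fell. The phosphatase gene Dusp16 rose by 2.29 (SE 0.16), Dusp10 by 1.82 (SE 0.19) and Dusp1 by 1.60 (SE 0.15) (limma adjusted p 9.43e-09, 8.94e-07 and 2.56e-07), and these phosphatases act on the stress kinases JNK and p38. Dusp6, which acts on ERK, differed by 0.18 (SE 0.15), within the spread (limma adjusted p 0.35). Of 13 NF-kB and inflammation genes 9 rose and 0 fell. Ptgs2, the inducible cyclooxygenase, had 1 to 4 reads per N_KO library and 25 to 63 per OGD_KO library, a log2 rise of 2.93 (SE 0.18) (limma adjusted p 4.37e-09). Tnfaip3, an inhibitor of NF-kB, rose by 2.38 (SE 0.19) (limma adjusted p 6.1e-08).

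Of 15 genes of the YAP and TEAD pathway, which senses cell contact and tension, 11 rose and 0 fell (7 with batch 3 alone). Ccn1, at chr3:145646976-145649981 (minus strand), a secreted matrix protein and YAP target, lay at 2.65, 3.74, 3.31, 3.04 and 1.70 in N_KO and 6.32, 6.40, 5.84, 5.86 and 5.69 in OGD_KO. The groups were apart, and it rose by 3.13 (SE 0.27) (limma adjusted p 1.09e-07). The coactivator genes Wwtr1 (TAZ) and Yap1 rose by 1.53 (SE 0.14) and 1.05 (SE 0.17) (limma adjusted p 2.68e-07 and 9.5e-05). YAP and TAZ are glial and progenitor genes in cortex. Of the astrocyte markers 5 of 9 rose and of the progenitor markers 4 of 9, which is given further on. Their part in this list was not tested.

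Death receptor and p53 genes rose in part, with 11 of 21 p53 targets higher and 1 lower. Fas, at chr19:34290666-34327772 (plus strand), encodes the death receptor. It had 1 to 5 reads per N_KO library and 21 to 104 per OGD_KO library, at log2 CPM of -0.54, -0.37, -0.86, -0.07 and -1.02 and 3.01, 3.05, 2.83, 2.88 and 1.99, without overlap. The rise was 3.33 (SE 0.23) (limma adjusted p 9.43e-09), and the lowest OGD_KO library was that of culture 5. Bbc3 (PUMA), which triggers mitochondrial apoptosis, lay at 3.81, 3.49, 3.69, 3.92 and 3.45 and then 4.54, 5.36, 4.89, 4.59 and 4.73 and rose by 1.15 (SE 0.17) (limma adjusted p 3.08e-05). The cell-cycle inhibitor gene Cdkn1a (p21), the best known p53 target, differed by 0.26 (SE 0.20), within the spread (limma adjusted p 0.324). In the BCL2 family, 3 of 14 genes rose (Bbc3, Bcl2l11 and Bax) and 3 fell, shares close to those of all genes (21.0% higher and 19.9% lower). The pro-death genes Bid and Pmaip1 fell by 0.93 (SE 0.17) and 0.59 (SE 0.15) (limma adjusted p 0.000223 and 0.00506), as did the survival gene Bcl2l1 by 0.57 (SE 0.16) (limma adjusted p 0.0089). Pmaip1 and Bcl2l1 were not called with batch 3 alone, nor Bcl2l1 without culture 3.

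Of 21 energy stress and mTOR genes 8 rose and 3 fell (1 rose with batch 3 alone and 3 without culture 3). Ddit4, an inhibitor of mTOR and also a HIF target, rose by 1.66 (SE 0.16) (limma adjusted p 4.38e-07), and Prkaa2, the catalytic AMPK subunit gene of neurons, fell by 0.80 (SE 0.15) (limma adjusted p 0.00035). Of 30 autophagy and mitophagy genes 8 rose and 1 fell, beside 21.0% higher and 19.9% lower among all genes. The count that rose was 3 with batch 3 alone, and 5 with a replicate block or without culture 1 or 3. Atg14 rose by 0.81 (SE 0.14) and the kinase gene Ulk2 fell by 0.86 (SE 0.14) (limma adjusted p 0.000156 and 0.000129).

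Synaptic genes made up the largest block of falls. Of 29 genes of presynaptic release 24 fell and 1 rose, with a median of -0.67 (10 fell with batch 3 alone). Syt1, at chr10:108497650-109010982 (minus strand), encodes the calcium sensor of vesicle fusion. It lay at 9.12, 9.24, 9.07, 9.11 and 9.13 in N_KO, within a narrow range, and at 7.97, 7.75, 7.92, 8.18 and 6.52 in OGD_KO, lowest in culture 5. The groups were apart, with a fall of 1.46 (SE 0.23) (limma adjusted p 8.64e-05). Slc17a7 and Slc17a6 encode the transporters that load glutamate into vesicles. Slc17a7 lay at 5.04, 4.77, 4.92, 4.12 and 5.47 and then 3.49, 3.46, 3.33, 3.54 and 2.36 and fell by 1.62 (SE 0.24), and Slc17a6 fell by 1.25 (SE 0.14) (limma adjusted p 3.28e-05 and 2.83e-06). The GABA counterpart Slc32a1 differed by -0.25 (SE 0.16), within the spread (limma adjusted p 0.226). Sv2c, a vesicle protein gene, was the member that rose (0.67 (SE 0.18), limma adjusted p 0.00647, not called with batch 3 alone or without culture 3), while Sv2b fell by 1.49 (SE 0.16) (limma adjusted p 1.41e-06).

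Receptor families fell to different extents. Of 15 GABA receptor genes 14 fell and 0 rose, with a median of -0.84. Gabrb1, at chr5:71658113-72149037 (plus strand), a beta subunit of the chloride channel, lay at 6.95, 7.02, 6.91, 7.36 and 7.39 in N_KO and 5.67, 5.15, 5.45, 5.20 and 5.24 in OGD_KO, without overlap. It fell by 1.79 (SE 0.15) (limma adjusted p 1.01e-07). The alpha subunit gene Gabra5 lay at 6.45, 6.77, 6.40, 6.38 and 6.40 and then 5.38, 5.55, 5.21, 4.70 and 4.70 and fell by 1.38 (SE 0.17) (limma adjusted p 7.08e-06). Of 24 glutamate receptor genes 11 fell and 2 rose, with a median of -0.35 (2 fell with batch 3 alone and 7 without culture 1 or 3). Grm2, a presynaptic metabotropic receptor gene, fell by 1.37 (SE 0.17) (limma adjusted p 7.06e-06). Grin1, the obligate NMDA receptor subunit, lay at 7.23, 7.18, 7.19, 7.38 and 7.52 and then 6.46, 6.56, 6.35, 5.56 and 6.67 and fell by 0.98 (SE 0.18) (limma adjusted p 0.000342). Gria2, the AMPA receptor subunit that limits calcium entry, lay at 10.26, 9.67, 10.34, 10.42 and 11.10 and then 10.20, 10.12, 10.26, 10.37 and 10.65. Its groups overlapped and the difference was -0.04 (SE 0.22) (limma adjusted p 0.899). Of 32 postsynaptic scaffold and adhesion genes 13 fell and 2 rose (4 fell with batch 3 alone, 7 without culture 1 and 6 without culture 3). Dlg2 (PSD-93) fell by 0.99 (SE 0.17), and the kinase gene Camk2a by 0.91 (SE 0.20) (limma adjusted p 0.000156 and 0.00128).

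Ion channel genes were also called lower more often than higher. Of 45 potassium channel genes 26 fell and 3 rose, with a median of -0.54 (14 fell with batch 3 alone), and of 22 sodium and calcium channel genes 8 fell and 3 rose (5 fell with batch 3 alone). Kcnv1, at chr15:45106284-45114920 (minus strand), a silent modifier subunit of potassium channels, lay at 4.69, 4.56, 4.76, 4.10 and 4.83 in N_KO and 2.90, 2.67, 2.54, 3.16 and 2.05 in OGD_KO, without overlap, and fell by 1.92 (SE 0.19) (limma adjusted p 5.89e-07). Kcnq5, which carries the M-current that restrains firing, fell by 1.67 (SE 0.16) and the sodium channel gene Scn2a by 1.11 (SE 0.15) (limma adjusted p 3e-07 and 2.2e-05). Of 22 neuropeptide and secreted factor genes 8 fell and 1 rose, with culture medians of -0.07, -0.22, -0.01, -0.63 and -0.65, so the list was lowest in cultures 4 and 5. In cultures 1 and 3 alone 7 of them were called higher and 7 lower. Adcyap1, at chr17:93199017-93206537 (plus strand), encodes the protective peptide PACAP. It lay at 3.31, 3.88, 3.46, 3.12 and 3.50 in N_KO and 1.40, 1.08, 1.34, 1.48 and 0.69 in OGD_KO and fell by 2.25 (SE 0.18) (limma adjusted p 6.1e-08). Bdnf differed by -0.20 (SE 0.26), within the spread (limma adjusted p 0.555), and Nptx2, a synaptic pentraxin gene induced by activity, rose by 1.02 (SE 0.18) (limma adjusted p 0.000185, not called with batch 3 alone).

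Genes of cortical identity and wiring fell in part. Of 22 cortical layer factors 12 fell and 3 rose (7 fell with batch 3 alone), with Sox5 lower by 1.09 (SE 0.16) and Tle4 by 1.08 (SE 0.16) (limma adjusted p 2.84e-05 and 3.59e-05), factors of the deep layers. Of 45 axon guidance genes 14 fell and 4 rose (5 fell with batch 3 alone and 9 without culture 3). Sema3e, at chr5:14025276-14256689 (plus strand), a secreted guidance cue, lay at 3.66, 4.21, 4.06, 4.74 and 4.49 in N_KO and 2.54, 1.29, 2.21, 2.07 and 1.79 in OGD_KO, without overlap, and fell by 2.25 (SE 0.22) (limma adjusted p 4.92e-07). Hcrtr2, at chr9:76225880-76323856 (minus strand), the orexin receptor gene and the named gene with the largest fall, lay at 3.57, 3.68, 3.36, 3.54 and 3.77 and then 1.51, 1.50, 1.61, 1.60 and 0.14. It fell by 2.31 (SE 0.23) (limma adjusted p 5.76e-07), with culture 5 lowest. Of 21 interneuron genes 6 rose and 4 fell (1 rose with batch 3 alone), beside 21.0% higher and 19.9% lower among all genes. The calcium-binding protein genes Calb1 and Calb2 fell by 1.66 (SE 0.16) and 1.03 (SE 0.17), and the factor gene Sp8 rose by 0.96 (SE 0.15) (limma adjusted p 4.92e-07, 8.72e-05 and 5.64e-05).

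The neuron, astrocyte and progenitor marker lists moved with these groups, and their part in the result was not tested. Of 10 neuron markers 5 fell and 0 rose, with a median of -0.55, which was -0.35 without OGD_KO of culture 5 (2 fell with batch 3 alone, 3 without culture 1 or 3, and 8 after quantile normalization). Rbfox3 (NeuN) and Map2 differed by -0.16 (SE 0.15) and -0.25 (SE 0.18), within the spread (limma adjusted p 0.411 and 0.271). Of 9 astrocyte markers 5 rose and 0 fell (2 with batch 3 alone), with Fgfr3 at 1.02 (SE 0.14) and Slc1a3 at 0.95 (SE 0.16) (limma adjusted p 2.74e-05 and 0.000135, the latter not called with batch 3 alone), while Gfap and Aqp4 differed by -0.34 (SE 0.17) and 0.01 (SE 0.17), within the spread (limma adjusted p 0.123 and 0.962). Of 9 progenitor markers 4 rose and 0 fell, led by the Notch target Hes1 (1.45 (SE 0.17)) and the filament gene Vim (1.28 (SE 0.23), limma adjusted p 4.66e-06 and 0.000207), while Pax6 and Nes differed by 0.24 (SE 0.16) and 0.26 (SE 0.19) (limma adjusted p 0.239 and 0.301). Of 8 oligodendrocyte lineage markers 3 rose (0 with batch 3 alone or without culture 1 or 3), of 3 endothelial and mural markers 2 rose (0 once genes with a mean log2 CPM under 1 were dropped), and of 4 fibroblast markers 0 rose (1 without culture 2 or 5). Markers of a cell type thus did not move as a block.

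Proliferation genes rose. Of 23 mitosis genes 22 rose and 0 fell, with a median of 1.19. Anln, which builds the contractile ring of dividing cells, lay at 2.97, 3.28, 3.09, 3.29 and 3.06 in N_KO and 4.89, 5.26, 5.06, 4.68 and 4.71 in OGD_KO, without overlap, and rose by 1.78 (SE 0.15) (limma adjusted p 6.66e-08). Ccnb1, the mitotic cyclin, rose by 1.58 (SE 0.17) (limma adjusted p 1.03e-06), with 23.4% of its 50-base words in other genes. Of 32 DNA replication genes 13 rose and 3 fell (3 rose with batch 3 alone, 7 without culture 1 and 6 without culture 3), among them the helicase subunit gene Mcm3 at 0.95 (SE 0.14) (limma adjusted p 3.98e-05). Of 55 replication-dependent histone genes 27 rose and 3 fell (8 rose with batch 3 alone, 16 without culture 1 and 12 without culture 3). Histone genes are near-identical copies, and H3c11, which rose by 0.96 (SE 0.16) (limma adjusted p 0.000142), shares 87.6% of its 50-base words with other genes. The letters TTTCCCGC or TTTGGCGC of the cell-cycle factor E2F, on either strand, were in 10 of 24 replication genes with a promoter (41.7%) and 0 of 19 mitosis genes, against 3.5% of 10252 genes.

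Ribosomal protein genes shifted together. Of 82 cytosolic members 78 rose and 1 fell (31 rose with batch 3 alone), with a median of 0.80 (0.79 with batch 3 alone). Rpl7 lay at 7.58, 7.80, 7.54, 7.47 and 7.28 in N_KO and 8.59, 8.26, 8.58, 8.81 and 8.72 in OGD_KO, without overlap, and rose by 1.06 (SE 0.15) (limma adjusted p 3.54e-05), with 21.0% of its 50-base words in other genes. The member that fell was the copy Rps4l (-0.61 (SE 0.19), limma adjusted p 0.0143, not called with batch 3 alone or without culture 1 or 3). Of 77 mitochondrial ribosomal protein genes 9 rose and 7 fell, with a median of 0.02 that turned below 0 with libraries centred on their median or after quantile normalization (2 rose with batch 3 alone, 5 without culture 1 and 4 without culture 3). Of 74 nuclear genes of the respiratory chain 4 rose and 1 fell (0 rose with batch 3 alone or without culture 3, 1 without culture 1, 8 without culture 2, 11 without culture 4, 2 with a replicate block, a batch term or centred libraries, 18 with the values as deposited and 27 with library weights), with a median of 0.08. Of 13 genes of the chain that mitochondrial DNA encodes 7 rose and 0 fell (2 with batch 3 alone), among them mt-Atp6 at 1.28 (SE 0.21) (limma adjusted p 0.000117). Of the 50-base words of mt-Atp6, 99.5% occur in other genes, so its value is uncertain, and the fold change of another member, mt-Co1, moved from 0.75 to -0.000 after quantile normalization and was not called with a replicate block. Of 35 proteasome genes 1 rose and 1 fell, and the count that rose was 0 with batch 3 alone, with a replicate block or batch term, with centred or quantile-normalized libraries and without culture 1, 3 or 5, 2 without culture 4 or with the values as deposited and 7 with library weights. Of 19 cytosolic tRNA synthetase genes 6 rose (1 with batch 3 alone, 2 without culture 1 or 3), with Tars at 0.95 (SE 0.15) (limma adjusted p 7.54e-05).

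Clock genes rose as a group, 14 of 18 higher and 1 lower, with a median of 0.90. Ciart, a repressor of the clock, lay at 0.99, 0.95, 0.80, 1.06 and -0.32 in N_KO and 3.29, 3.07, 3.42, 3.62 and 3.96 in OGD_KO and rose by 2.78 (SE 0.24) (limma adjusted p 1.01e-07). The repressor gene Nr1d1 (REV-ERB alpha) rose by 1.51 (SE 0.20), and Bhlhe40, also a HIF target, by 2.62 (SE 0.22) (limma adjusted p 9.96e-06 and 8.44e-08). Of the activators, Npas2 fell by 1.28 (SE 0.23) (limma adjusted p 0.000199), while Arntl and Clock differed by 0.14 (SE 0.16) and 0.50 (SE 0.25), within the spread (limma adjusted p 0.499 and 0.12). Of 22 oxygen-dependent demethylases 9 rose and 1 fell (4 rose with batch 3 alone), with Kdm7a at 1.90 (SE 0.16) beside Kdm3a (limma adjusted p 6.1e-08).

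RNA-processing genes and long noncoding RNAs moved as well. Of 35 splicing kinase and SR protein genes 17 rose and 1 fell (3 rose with batch 3 alone and 11 without culture 3). The kinase gene Clk1, which phosphorylates SR proteins, rose by 1.26 (SE 0.14) (limma adjusted p 2.23e-06). Of 19 long noncoding RNAs 10 rose and 4 fell. Neat1, the scaffold of nuclear paraspeckles, lay at 3.81, 2.71, 3.61, 3.30 and 4.11 in N_KO and 5.92, 6.62, 5.95, 6.19 and 4.44 in OGD_KO, without overlap, and rose by 2.31 (SE 0.31) (limma adjusted p 1.32e-05). Malat1 lay at 13.37, 12.53, 13.49, 13.19 and 13.89 and then 14.36, 15.17, 14.38, 14.60 and 14.10 and rose by 1.23 (SE 0.30) (limma adjusted p 0.00308), a call lost with batch 3 alone and after quantile normalization. Snhg12, a host of small nucleolar RNAs, rose by 1.85 (SE 0.15) (limma adjusted p 6.1e-08), and Meg3, an imprinted neuronal RNA, fell by 0.58 (SE 0.20) (limma adjusted p 0.0286), a call also lost with batch 3 alone, with a replicate block and without culture 1, 3, 4 or 5.

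Lipid synthesis fell in part. Of 32 cholesterol and fatty acid synthesis genes 11 fell and 2 rose, with a median of -0.34 (3 fell with batch 3 alone and 7 without culture 1). Hsd17b7, a late enzyme of cholesterol synthesis, and Elovl6, a fatty acid elongase, fell by 1.28 (SE 0.14) and 1.09 (SE 0.17) (limma adjusted p 1.89e-06 and 7.23e-05). The regulator gene Srebf2 differed by 0.15 (SE 0.15), within the spread (limma adjusted p 0.441).

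At the knocked-out locus, Cdr1as had 5 to 16 reads per N_KO library and 2 to 14 per OGD_KO library, against 700 to 1365 per N_WT and 545 to 1912 per OGD_WT library. All KO libraries lay below all WT libraries. Within KO, it had a log2 difference of 0.02 (SE 0.28) (two-sided exact permutation p 0.937). At this depth a response of the residual signal to OGD was not detectable. Cdr1os, a noncoding transcript that overlaps the locus, differed by -0.33 (SE 0.19) (two-sided exact permutation p 0.214), and its reads may be shared with the locus because the strand setting of the counting is not given in the sources used here. Cyrano, listed as Oip5os1 at chr2:119594297-119607502 (plus strand), directs the decay of miR-7. It lay at 8.85, 8.89, 8.78, 8.64 and 9.19 in N_KO and 7.92, 7.68, 7.80, 8.24 and 7.09 in OGD_KO, without overlap, and fell by 1.12 (SE 0.19) (limma adjusted p 0.000143). The two-sided exact permutation p was 0.00794, the smallest that 5 against 5 libraries allow.

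**Figure D4:**
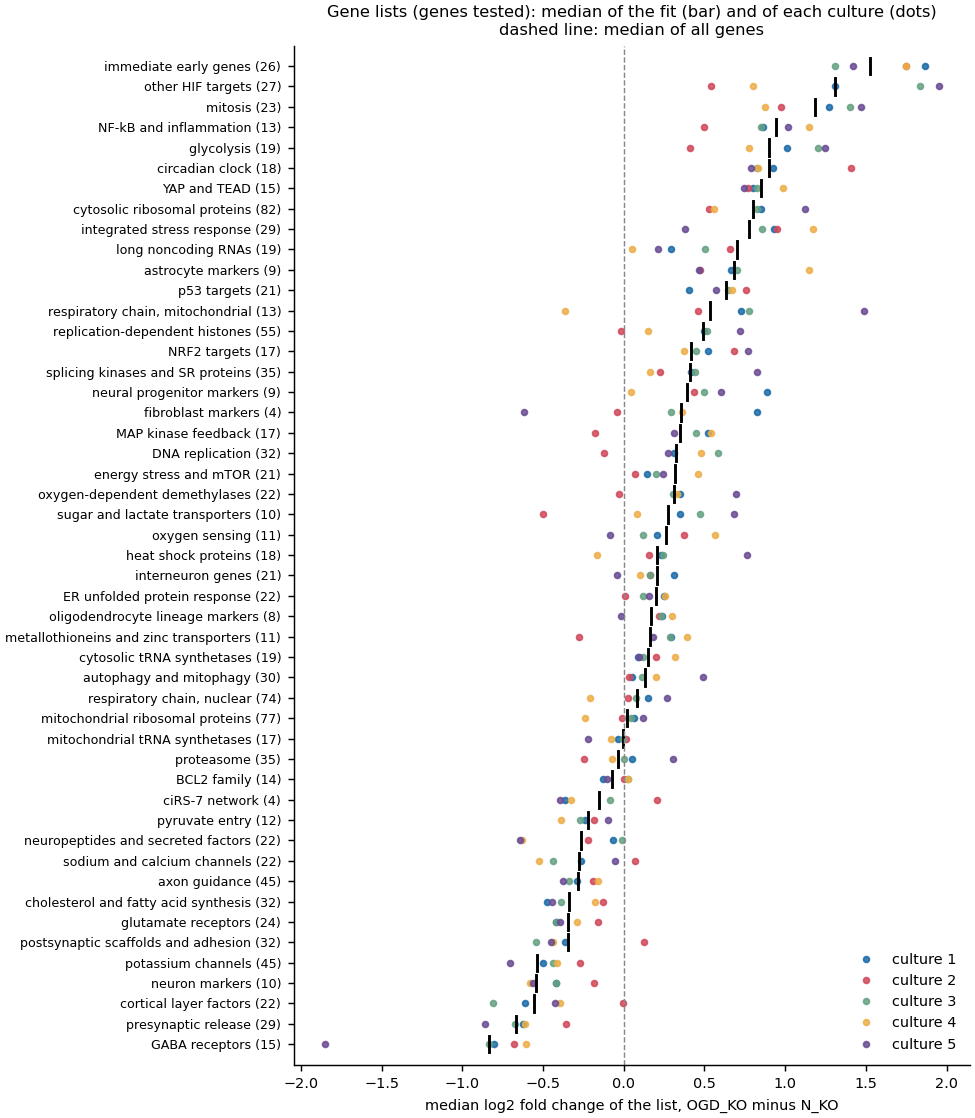
Each row is a list with at least 4 genes tested, and the x axis is its median log2 fold change of OGD_KO against N_KO. The black mark is the median in the fit over 5 cultures, dots are the medians within each culture, and the dashed line is the median of all genes. Immediate early genes, other HIF targets and mitosis genes lie farthest right (1.52, 1.31 and 1.19), and GABA receptors (-0.84) farthest left.

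The size of the response is given by culture. Over 5367 called genes, the response of a culture regressed on the mean of the others had a slope of 0.885, 0.825, 0.922, 0.842 and 1.176 in cultures 1 to 5. These genes were called in the same cultures, so the slopes are a description. Over all 14375 genes, 5557 moved in the same direction in all 5 cultures. For the glycolysis genes the median response was 1.01, 0.41, 1.21, 0.77 and 1.25 in cultures 1 to 5, lowest in culture 2 and highest in culture 5. For the integrated stress response it was 0.93, 0.95, 0.86, 1.18 and 0.38, lowest in culture 5. For the immediate early genes it was 1.86, 1.75, 1.31, 1.75 and 1.42, and for presynaptic release -0.62, -0.36, -0.67, -0.61 and -0.86. The GABA receptor genes had medians of -0.81, -0.68, -0.83, -0.60 and -1.85, lowest in culture 5. Culture 5, which had the steepest slope, also had the highest share of mitochondrial ribosomal RNA (33.8% in OGD_KO).

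Most genes called in KO moved in the same direction in WT neurons. Of 5799 genes called in KO and also listed in WT, 5775 (99.59%) had the same sign in WT, and 5054 were called in both. Among all 14097 genes listed in both genotypes, 6269 were called in WT. Over 14097 genes the Pearson correlation of the log2 fold changes was 0.943, a description across genes, which are not independent replicates. The interaction of genotype and OGD was called by limma for 0 of 13688 genes (0%), with a smallest limma adjusted p of 1. Only 99 genes (0.723%) had an unadjusted limma p under 0.05, fewer than the share of 0.05 that chance alone gives. The test was thus conservative on these values, for a reason that was not tested. It does not show that the genotypes responded alike. Fosb, for which the fold change was 2.92 in KO and 3.88 in WT, had an interaction of -1.05 (unadjusted limma p 0.0265). Slc2a1 was at 3.50 in KO and 3.96 in WT, Vegfa at 2.98 and 3.29, Gabrb1 at -1.79 and -1.89, and Slc7a11 at 2.12 and 1.82. The list medians were 0.90 in KO and 1.19 in WT for glycolysis, 1.31 and 1.62 for other HIF targets, 0.78 and 0.77 for the integrated stress response, and -0.67 and -0.57 for presynaptic release. The histone gene H2ac14 was the gene called in both with opposite signs, at 2.92 in KO and -2.65 in WT. Its KO values were 5.63, 4.90, -1.21, -1.21 and 2.60 in N_KO and 4.90, 5.38, 6.49, 5.24 and 3.33 in OGD_KO, where -1.21 stands for 0 reads, so the sign rests on the libraries in which it was not detected, and it was not called without culture 3 or 4.

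**Figure D5:**
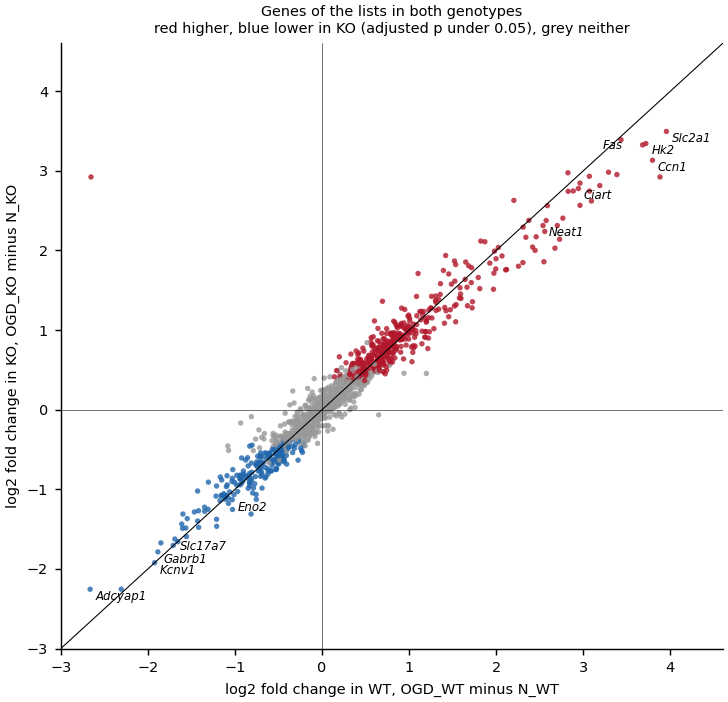
Each point is a gene of the lists, with its log2 fold change of OGD against normoxia in WT on the x axis and in KO on the y axis. The points follow the diagonal from the synaptic genes at the lower left to Slc2a1 and Hk2 at the upper right, and the lone point at 2.92 in KO and -2.65 in WT is H2ac14.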

How the data were processed

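The deposited tables hold log2 CPM per gene symbol, per the file headers, and the table of OGD_KO and N_KO lists 14375 genes in 10 libraries. The genome build mm10 is named per the submitters' processing notes. The aligner, the counting, its strand setting, the gene filter and any adjustment between batches are not given in the sources used here. Total RNA (TRIzol, DNase) went into a stranded total RNA kit, per the labels' protocols.

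In each gene and group of 5, the authors' lowest and highest values lay where clipping at the 10th and 90th percentile puts them (weight 0.6 on the extreme and 0.4 on its neighbour). This was inferred from the values, and it was inverted. Within 0.05 reads, and for genes under 500 reads, 45.9% to 89.6% of a library's deposited values were whole reads before and at least 99.92% after, which gave 7496144 to 14764851 reads per library. These whole numbers need not be raw reads. The constant implied in the table is 4.96 reads, so 0 reads stand at -1.21 log2 CPM and fold changes of low genes are understated.

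limma 3.58.1 in R 4.3.3 (eBayes with an intensity trend, 5 against 5, no block) was fitted on the unclipped log2 CPM of all genes, and genes were called at a two-sided Benjamini-Hochberg adjusted p under 0.05. The interaction was fitted on recovered reads of 13688 genes in 20 libraries (prior count 2, culture as block through duplicateCorrelation, culture correlation -0.19). Single transcripts of the locus had exact permutation tests. The procedure was tested on simulated data with independent libraries of equal scatter. That test does not cover the unequal scatter of the cultures or the cancelling within batches seen here. Same-numbered N_KO and OGD_KO libraries share the culture number, genotype and batch in the labels. Their deviations from the group means correlated at -0.13, -0.04, -0.78, -0.09 and -0.29 in cultures 1 to 5. None was positive. The libraries of culture 3 lay close to their group means (standard deviation 0.101 in OGD_KO and 0.116 in N_KO). Their small deviations tended to run in opposite directions. These libraries were thus not independent of each other, and what this does to the p-values was not tested.

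The 51 lists (44 pathways, 7 cell types) and the comparison were chosen with earlier results of these data known. Genes were named by a rule: the 12 largest rises and falls among called genes with mean log2 CPM of at least 1, groups that do not overlap, the same direction in 5 cultures and no predicted symbol, the 6 largest gains and losses of CPM, up to 4 members of each list with the smallest p, Cdr1as, Cdr1os, Oip5os1, and the 3 genes most like glycolysis. Named after their values were seen, for contrast or role, were Aqp4, Arntl, Asns, Atf4, Bcl2l1, Bdnf, Cdkn1a, Clock, Ddit3, Dusp6, Egln2, Eno2, Gclm, Gfap, Gria2, H2ac14, Hif1a, Hk1, Hspa8, Ldha, Ldhb, Map2, Ndrg1, Nes, Npas2, Nr1d1, P4ha1, Pax6, Pdp1, Pfkm, Pfkp, Pmaip1, Rbfox3, Rps4l, Slc2a3, Slc32a1, Srebf2, Srf, Sv2c, Txnrd1, Vhl, Xbp1 and Yap1, with the small RNAs of the closing section. Gene positions (mm10) and shared 50-base words come from GENCODE mouse release 21, to which 14237 genes (99.0%) matched: 13949 by symbol, 215 by older symbol and 73 by gene ID. Promoters are RefSeq's, GRCm38.p6, 250 bases before to 50 after the start. Alternatives covered the clipping, block, batch, scaling, prior count, weights, filter and each library left out; use of cultures 1 and 3 alone was added after seeing the data. Results for some items are not reported here.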

Additional observations from a re-analysis of the deposited data

Results flagged for a closer look

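In 26 of 282 sets of 5 libraries, the highest or lowest library stood off from the other 4 by more than 0.71 of the range of the group, the critical value of Dixon's test for 5 values. Chance alone gives about 14.1 such sets. Cultures 2, 4 and 5, whose libraries scatter most, held 12, 5 and 8 of them, and cultures 1 and 3 held 0 and 1. Values below are log2 CPM of the library that stands off.

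In OGD_KO of culture 2, Eif2ak3 (6.75, others 5.90 to 6.13), Hes1 (3.46, others 2.61 to 2.84) and Meg3 (11.36, others 10.77 to 10.93) lay above the other 4 libraries. In OGD_KO of culture 2, Eno1 (8.23, others 8.88 to 8.98), Kdm3a (7.40, others 7.84 to 8.02), Ldha (7.37, others 8.03 to 8.22) and Pmaip1 (2.48, others 2.84 to 2.97) lay below the other 4 libraries. In OGD_KO of culture 3, Ddit3 (3.95, others 4.28 to 4.37) lay below the other 4 libraries. In OGD_KO of culture 4, Grin1 (5.56, others 6.35 to 6.67) lay below the other 4 libraries. In OGD_KO of culture 5, Fas (1.99, others 2.83 to 3.05), Hcrtr2 (0.14, others 1.50 to 1.61), Slc17a7 (2.36, others 3.33 to 3.54), Syt1 (6.52, others 7.75 to 8.18) and Txnrd1 (6.13, others 6.41 to 6.52) lay below the other 4 libraries. The share of reads from mitochondrial rRNA genes in OGD_KO of culture 5 was 33.8%, against 20.2% to 23.5% in the others.

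In N_KO of culture 2, Ccnb1 (4.47, others 3.65 to 3.77), Gabra5 (6.77, others 6.38 to 6.45), Kdm7a (5.62, others 5.13 to 5.27) and Ldhb (6.74, others 5.91 to 6.08) lay above the other 4 libraries. In N_KO of culture 2, Scn2a (8.02, others 8.37 to 8.50) lay below the other 4 libraries. In N_KO of culture 4, Aqp4 (4.35, others 5.03 to 5.30), Nr1d1 (0.99, others 1.72 to 2.00), Rbfox3 (5.02, others 5.35 to 5.47) and Sv2b (5.64, others 6.21 to 6.35) lay below the other 4 libraries. In N_KO of culture 5, Ciart (-0.32, others 0.80 to 1.06) and Hspa8 (9.48, others 11.01 to 11.57) lay below the other 4 libraries.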

How the results depend on the processing

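The number of genes called was 5884. It moved by more than 1.5 times with batch 3 cultures only (2341 called, 1190 higher and 1151 lower, 2286 of them shared with the fit over all cultures) and with library weights (10573 called, 5405 higher and 5168 lower). It was 8024 on the values as deposited, in which the clipping narrows the spread of a group, and 8169 in cultures 1 and 3 only, chosen after seeing the data (5290 shared). Leaving out libraries gave 4025 to 5930 calls, 2062 to 3090 higher and 1963 to 2880 lower, with the fewest without culture 3. Calls of at least 1 in size numbered 656 to 761 higher and 490 to 634 lower over the same fits. With the replicate block 4829 genes were called, 2491 higher and 2338 lower; among genes of the report the block ended the calls of Meg3 and mt-Co1, and it moved the counts of higher autophagy and mitophagy (5), nuclear respiratory chain (2) and proteasome genes (0). Centring libraries on their median moved the median gene to -0.031 and the split to 2788 higher and 3152 lower. Signs turned after quantile normalization for mt-Rnr1 (-0.073), Rn7sk (-0.181), mt-Rnr2 and mt-Co1 (both -0.000), and for Bdnf, not called in the fit over all cultures, in cultures 1 and 3 only (0.670) and with library weights (0.348). The causes were not tested. The depth limits genes of few reads, such as Adm, Ptgs2, Slc16a3, Fas and Cdr1as. Because the gene filter is not given, genes with few N_KO reads, such as Adm, Ptgs2 and Hspb1, may be listed only through OGD_KO.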

Other observations

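Small noncoding RNAs of the classes below were mostly higher under OGD in KO neurons. The group was chosen after its values were seen. Members with few or 0 reads in N_KO may be listed only through OGD_KO, which would tilt the count upward. By symbol, 35 of 42 small nuclear, nucleolar, Cajal body, 7SK, 7SL and RNase P RNAs were called higher by limma and 0 lower, with a median log2 fold change of 0.91, beside 21.0% higher among all genes. The culture medians were 0.84, 0.90, 0.70, 0.74 and 1.43. By annotated class, 39 of 55 snoRNAs, 20 of 26 snRNAs and 6 of 6 scaRNAs were higher and 0 lower. Snora81 had 0 reads in each N_KO library and 23 to 84 in each OGD_KO library, at least 111.6-fold higher with a floor of 3 reads over the group. Snora75 had 0 and 22 to 40 reads, at least 61.4-fold higher. For both, 100% of the 50-base words occur in other genes, so their reads may be shared and their values are uncertain. The U1 gene Rnu1a1 lay at 5.22, 4.97, 5.41, 5.73 and -1.21 log2 CPM in N_KO and at 7.86, 7.49, 7.00, 6.85 and 8.46 in OGD_KO, but 100% of its 50-base words occur in other genes. Total RNA libraries catch such short RNAs incompletely, and the share of mitochondrial ribosomal RNA rose in the same libraries; the part of either was not tested.

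In 5 equal classes of genomic span, from the shortest to the longest, the median log2 fold change of protein-coding genes was 0.02, -0.01, -0.01, -0.03 and -0.05. Of 202 protein-coding genes of at least 500 kb, 33 (16.3%) were called higher and 61 (30.2%) lower, beside 19.9% higher and 20.4% lower among all protein-coding genes.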
